A study of Mus musculus with 27 samples.

Results

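The gene expression of colon macrophages from DSS treated *Mbd2*-/- and WT mice was compared on Illumina MouseWG-6 BeadChips, arrays that read transcripts with bead-bound probes. The comparison covered every array labelled as macrophage and colon, 5 WT and 5 *Mbd2*-/- arrays of the 27 in the series, and every probe above background on 5 or more of these 10 arrays. That left 12027 of the 28912 genes on the array. Both genotypes were on a C57BL/6 background, age and sex matched within 8 to 22 weeks, and co-housed as littermates. Both received 2% DSS, a sulphated polysaccharide that injures the colon epithelium, in drinking water for 6 days, so no array shows macrophages of an uninjured colon. The knockout was global, so every other cell of the *Mbd2*-/- colon lacked the gene as well, and a change within macrophages and a change caused by their surroundings cannot be told apart. Macrophages were sorted as F4/80+MHC-II+CD11b+CD45+ lamina propria cells without Ly6C, Ly6G or Siglec-F, and the paper and the deposited record give different ranges for how many mice were pooled into 1 replicate. All values below are log2 intensities after background correction and quantile normalisation, given as mean ± SD with n = 5 per genotype, and changes are *Mbd2*-/- minus WT.

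Mbd2 binds methylated CpG sites and brings the NuRD complex, which removes histone acetylation, to the bound DNA, so it links DNA methylation to gene silencing. Colon macrophages are replaced from blood monocytes. In health they take up dead cells and microbes with little inflammatory response, and during injury newly arrived cells that have not completed this maturation add to the pool.

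The genotype labels could not be checked on the *Mbd2* transcript. Its 1 probe was above background on 0 of the 25 colon arrays, with a smallest detection p of 0.163 among the macrophage arrays. Raw intensities lay at 84.3 to 92.4 on WT arrays, while *Mbd2*-/- arrays gave 80.4 to 96.4. Across the macrophage arrays 16495 to 18608 probes were above background. At the detection limit that chose the probes, 689 probes were above background on exactly 5 arrays, with a median raw intensity of 96.8, and 808 on exactly 4, with a median of 95.6.

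Both genotypes carried the profile of macrophages. All 12 macrophage markers were measured and 11 were above background on all 10 arrays, with the complement subunit *C1qb* the brightest at 13.59 ± 0.04 in WT and 13.62 ± 0.05 in *Mbd2*-/- macrophages. Their summed intensity ranged from 57171 to 61773 in WT and from 58454 to 63875 in *Mbd2*-/- arrays. *Siglecf* of eosinophils and *Trac* of T cells were above background on too few arrays to be tested, and *Ly6g* of neutrophils was not tested. Other markers of these cells were measured, 3 of 8, 8 of 13 and 6 of 13, of which 2, 7 and 6 were above background on all 10 arrays. So were all 12 stromal markers and the 9 endothelial markers measured. Other transcripts were present in both genotypes: the immunoglobulin constant region *Igkc* was read at 13.76 ± 0.17 and 13.77 ± 0.12, and summed epithelial markers ranged from 10902 to 30659 in WT and from 15323 to 33709 in *Mbd2*-/- arrays. In sorted bulk RNA, fewer cells of a type and less RNA per cell cannot be told apart.

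A pair of arrays stood apart from the rest of their groups. The mean correlation with the other arrays of the genotype was 0.952 for WT array 12 and 0.959 for *Mbd2*-/- array 20, and 0.967 to 0.977 for the other 8. The 10 arrays also lie in 2 sets of 6 consecutive columns of the deposited table, which the labels do not describe. WT arrays 11 to 13 and *Mbd2*-/- arrays 19 and 20 lie in the earlier set, and WT arrays 14 and 15 and *Mbd2*-/- arrays 16 to 18 in the later set. Each set held both genotypes, so the change could be read within each. Calls that were lost without arrays 12 and 20 are named as such beside the genes, and list medians are given without the pair where they moved by more than 0.1.

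Of the 12027 genes, 319 (2.65%) were higher and 337 (2.8%) were lower in *Mbd2*-/- macrophages at an adjusted p under 0.05 (limma, Benjamini-Hochberg). A log2 change of at least 1 was added to this for 160 genes (1.33%), of which 142 were higher and 18 lower. Without the fold limit 5.45% of all genes passed, and each count of passing list members below is to be read beside these shares. The counts describe the lists and were not tested against the shares. The split of higher and lower calls depended on the scaling, with 114 higher and 33 lower genes under median scaling and 386 higher and 266 lower under cyclic loess. With the macrophage arrays normalised and fitted alone, 60 genes passed, 32 of them past the fold limit. In 632 genes (5.25%) the 5 WT and 5 *Mbd2*-/- values did not overlap, and these included 362 of the 656 passing genes. The median change over all genes was -0.08, with -0.15 in the earlier set and -0.02 in the later set. All 656 genes had the same sign in both sets. They were chosen by their change over both sets together, so the shared sign is no separate check. Fitted within each set, 1229 genes passed in the earlier set and 13 in the later set.

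Much of the count of rises and of falls rested on the 2 arrays that stood apart. Among all 337 falls, WT array 12 held the highest of the 10 values in 192 and *Mbd2*-/- array 20 the lowest in 169. The matching shares of all genes were not computed for the falls. Among the 142 rises past the fold limit, WT array 12 held the lowest of the 10 values in 104 and *Mbd2*-/- array 20 the highest in 89, against 14.9% and 9.55% of all genes. Without both arrays 121 genes passed, 64 higher and 57 lower, and 48 of them passed the fold limit. Of the 656 genes, 113 passed again, 58 higher and 55 lower. When each of the 10 arrays was left out in turn, 164 genes passed every time, 67 higher and 97 lower.

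**Figure D1:**
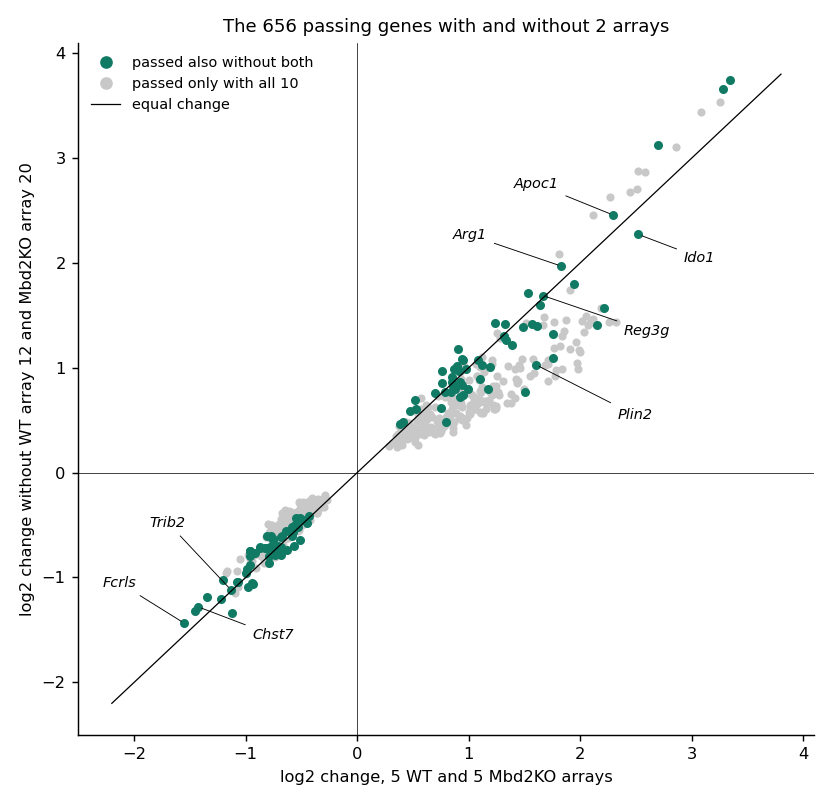
Log2 change (*Mbd2*-/- minus WT) of the 656 passing genes over all 10 arrays (x axis) and without WT array 12 and *Mbd2*-/- array 20 (y axis); each point is a gene and green points passed both times. Points below the line on the right are rises that shrank without the pair of arrays, such as *Plin2* (1.60 and 1.03), while *Apoc1* (2.29 and 2.46) did not shrink. Points above the line on the left are falls that shrank, such as *Chst7* (-1.43 and -1.28).

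Genes of lipid transport held the change with the smallest p. *Apoc1*, an apolipoprotein of triglyceride-rich particles and HDL, was read at 5.76, 6.02, 5.58, 5.82 and 5.30 on WT arrays 11 to 15 and at 8.39, 8.12, 8.18, 7.60 and 7.65 on *Mbd2*-/- arrays 16 to 20. The genotypes were far apart and did not overlap. *Apoc1* rose 4.90-fold (log2 change 2.29, SE 0.17, adjusted p = 6.29e-08, limma), by 1.84 in the earlier and 2.67 in the later set, and a second probe rose by 1.82. The neighbouring apolipoprotein gene *Apoe*, among the brightest transcripts of these cells, was 13.16 ± 0.17 in WT and 13.33 ± 0.10 in *Mbd2*-/- macrophages and did not pass (adjusted p = 0.59, limma). *Fabp3*, a cytosolic carrier of fatty acids, rose by 0.94, from 4.64 ± 0.26 to 5.58 ± 0.23.

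The lipid droplet coat protein gene *Plin2* rose by 1.60 (adjusted p = 0.0118, limma), but WT array 12, at 6.16, lay well under the other WT arrays (8.12 to 8.96), and the change was 1.03 without arrays 12 and 20. *Trem2*, a receptor for lipids and apolipoproteins, was the member of this list that fell, from 9.89 ± 0.43 to 8.69 ± 0.32. Of 28 lipid handling genes measured, 3 rose and 1 fell, with a median change of 0.13 beside -0.08 for all genes. Without arrays 12 and 20, 4 were higher and 1 lower. The galectin *Lgals3* (-0.12) and the lysosomal glycoprotein *Gpnmb* (0.56), both abundant in lipid-laden macrophages, did not pass.

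Among 22 measured genes of sterol synthesis and uptake the median was -0.11, and -0.07 without arrays 12 and 20. *Insig1* (-0.91), which retains the sterol sensor in the endoplasmic reticulum, and *Srebf2* (-0.51), the transcription factor of the pathway, fell without overlap between the genotypes. Neither passed without arrays 12 and 20, at -0.91 and -0.47.

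Enzymes and carriers of arginine, tryptophan and glutamate gave some of the most stable changes. *Arg1*, arginase, which converts arginine to ornithine and urea, lay between 6.80 and 7.21 on the WT arrays and was 9.27, 9.15, 9.08, 8.34 and 8.26 on *Mbd2*-/- arrays 16 to 20. All *Mbd2*-/- values were thus above all WT values, and the change was 1.83 (SE 0.22, adjusted p = 5.68e-05, limma), with 1.97 without arrays 12 and 20. *Slc1a3*, a plasma membrane glutamate transporter, was near background in WT macrophages, at 4.55, 5.07, 5.22, 4.74 and 4.60, and was 5.77, 6.55, 6.59, 6.59 and 6.87 in *Mbd2*-/- macrophages. It rose by 1.64 (adjusted p = 1.16e-05, limma) and by nearly the same amount in both sets (1.79 and 1.63).

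The steps of tryptophan breakdown moved in opposite directions. *Ido1*, which opens the kynurenine route, rose 5.74-fold, from 5.72 ± 0.57 to 8.24 ± 0.55. Downstream of it, *Haao*, which oxidises hydroxyanthranilic acid, fell by 0.98 (6.21 ± 0.29 to 5.24 ± 0.37, adjusted p = 0.00509, limma) and *Kmo*, kynurenine hydroxylase, by 0.62 (adjusted p = 0.0408). Neither fall passed without arrays 12 and 20 (-0.78 and -0.57), and 2 dimmer *Haao* probes, at -0.27 and -0.20, did not pass. Of the 17 genes of this list, 3 rose and 2 fell, and the median was 0.15. The polyamine enzyme *Odc1*, which uses the product of arginase, was 12.38 ± 0.05 and 12.26 ± 0.17 and did not pass.

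**Figure D2:**
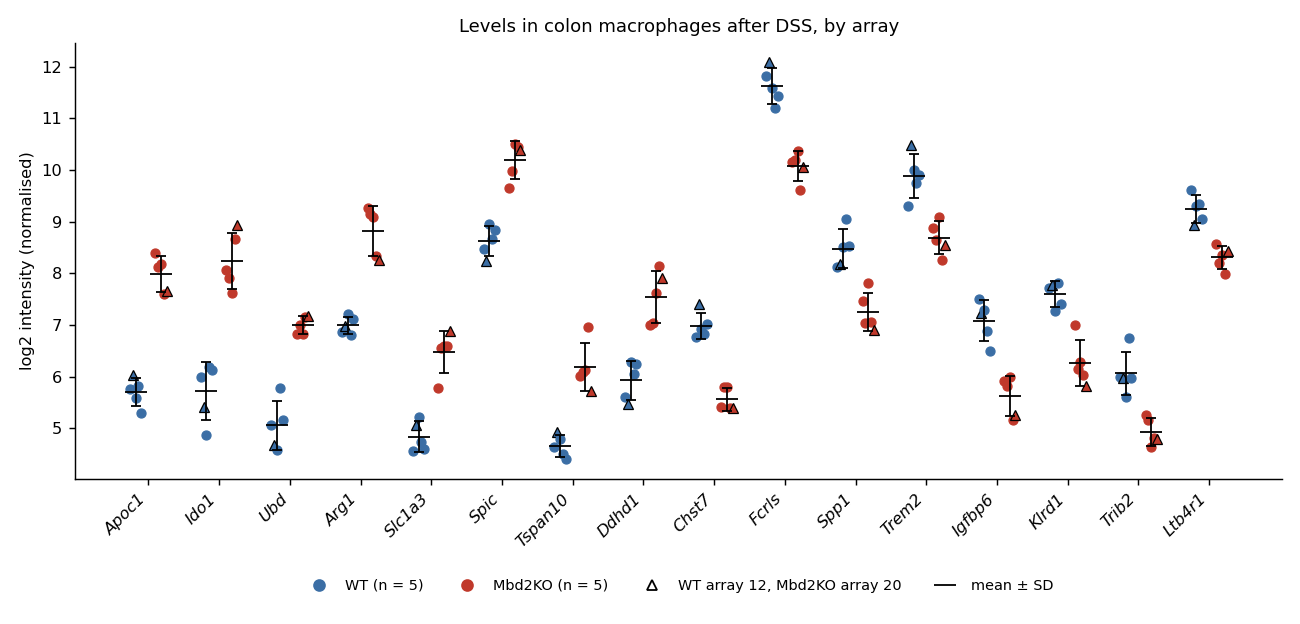
Log2 intensity of 16 genes on the 10 arrays; blue points are WT and red points *Mbd2*-/- arrays, triangles mark WT array 12 and *Mbd2*-/- array 20, and bars give mean ± SD (n = 5). The genotypes do not overlap in any of the 16 genes, and the triangles lie among or close to the other points of their group for *Apoc1*, *Arg1* and *Slc1a3*.

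Among genes induced by interferon-γ, the cytokine that activates macrophages against intracellular microbes, the calls were all rises. *Ubd*, a ubiquitin-like modifier, was read at 5.07, 4.66, 4.58, 5.79 and 5.16 on the WT arrays and at 6.83, 6.99, 6.81, 7.15 and 7.18 on the *Mbd2*-/- arrays. It rose by 1.94 (SE 0.24, adjusted p = 6.67e-05, limma), with no overlap and with 1.79 without arrays 12 and 20. Of 19 signalling genes 3 rose, with a median of 0.35 that was 0.21 without arrays 12 and 20, when 2 passed. *Irf1* (0.44), *Fcgr4* (0.06) and *Socs3* (-0.08) did not pass.

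All 12 measured interferon-γ inducible GTPases, which attack the vacuoles of intracellular microbes, had positive changes, from 0.22 to 1.45 with a median of 0.50, but 2 of them passed. *Gm12250*, which encodes Irgb10, rose by 1.45 (5.24 ± 0.73 to 6.69 ± 0.73, adjusted p = 0.0304, limma) and *Igtp* by 1.21 (8.97 ± 0.59 to 10.18 ± 0.43, adjusted p = 0.0343). The abundant *Irgm1* (0.29), *Gbp2* (0.58) and *Gbp3* (0.40) did not pass on their brightest probes, while a dimmer *Gbp3* probe rose by 0.88 without overlap (adjusted p = 0.0249, limma). The 2 passing genes are neighbours on chromosome 11. Their promoter sequences, the stretch directly upstream of the RefSeq gene start (GRCm38.p6, gene strand +), are shown because both hold the 2 elements known for interferon response; capitals mark GAAANNGAA, the core of the interferon-stimulated response element, and TTCNNNGAA, the site of STAT dimers, each searched on both strands (TTCNNNGAA reads the same on both).
Igtp, chr11:58199306-58199555: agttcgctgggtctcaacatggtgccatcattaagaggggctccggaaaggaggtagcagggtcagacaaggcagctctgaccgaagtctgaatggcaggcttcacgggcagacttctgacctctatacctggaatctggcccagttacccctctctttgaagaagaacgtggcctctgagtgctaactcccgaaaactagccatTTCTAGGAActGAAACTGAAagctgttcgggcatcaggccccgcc
Gm12250, chr11:58183593-58183842: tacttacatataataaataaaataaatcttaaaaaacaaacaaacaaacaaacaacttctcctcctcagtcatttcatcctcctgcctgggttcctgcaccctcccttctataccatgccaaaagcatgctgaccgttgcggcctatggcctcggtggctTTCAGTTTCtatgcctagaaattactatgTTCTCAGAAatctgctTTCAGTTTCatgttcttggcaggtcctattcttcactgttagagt
In promoter windows extended to include the first bases of the transcript, 9 of 10 GTPase genes with a RefSeq promoter held GAAANNGAA and 6 held both motifs, against 7.19% and 6.97% of the 8383 tested genes with a promoter for each motif alone. The GTPases were listed as interferon-γ targets, so the motifs describe the list and not the change.

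The higher level of these genes came mainly from 3 WT arrays. After each gene was centred on its mean, the median GTPase level was -0.57, -0.44 and -0.79 on WT arrays 11, 12 and 13, and 0.18 and 0.17 on WT arrays 14 and 15. *Mbd2*-/- arrays 16 to 20 were at -0.05, 0.29, 0.09, 0.45 and 0.59, so WT arrays 14 and 15 lay within the *Mbd2*-/- range. In the earlier set the median change of the list was 1.13 and 6 of 12 genes passed, and in the later set it was -0.01 and 0 passed. Without arrays 12 and 20 the median was 0.42 and 0 passed.

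MHC class I genes and the peptide loading complex rose in 6 of 17 measured members, with none lower and a median of 0.45, which was 0.68 in the earlier set, 0.14 in the later set and 0.31 without arrays 12 and 20. *H2-Q7*, a class Ib heavy chain, was 10.44 ± 0.47 in WT and 11.30 ± 0.19 in *Mbd2*-/- macrophages (change 0.86, adjusted p = 0.0085, limma). *Tap1*, a subunit of the peptide transporter, rose by 0.82, *H2-M3*, which presents formylated peptides, by 0.56, and *H2-Q6* by 1.50, although class Ib genes are close in sequence and their probes may read more than 1 of them. The *H2-Q6* change was led by WT array 12 (6.03) and *Mbd2*-/- array 20 (10.34) and was 0.79 without them. *Psmb9*, a catalytic subunit of the immunoproteasome, rose by 0.54, as the only passing gene of 6 in that complex. Of all these class I and immunoproteasome genes, 0 passed without arrays 12 and 20. The common subunit *B2m* (13.46 ± 0.13 and 13.52 ± 0.10) and the heavy chain *H2-K1* (0.37) did not pass on their brightest probes. A dimmer *H2-K1* probe rose by 1.31 without overlap (adjusted p = 0.0088, limma).

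Class II and type I interferon genes gave few calls. *H2-Ab1*, *H2-Eb1* and *Cd74*, which form and chaperone the MHC-II molecules used in the sort, changed by 0.06, -0.01 and 0.07, and 1 of 16 members passed, the lysosomal thiol reductase *Ifi30* (0.51, adjusted p = 0.0337, limma; 0.40 without arrays 12 and 20, not passing). Of 24 type I interferon stimulated genes 0 passed, at a median of 0.09 that was 0.56 in the earlier set and -0.22 in the later one. The brightest, *Ifitm3*, *Oas1g* and *Rsad2*, changed by -0.03, 0.09 and 0.40. *Il27*, a cytokine of activated myeloid cells, rose by 1.14 and was the only passing cytokine of 20. It was above background on 2 WT arrays and entered the comparison only with the *Mbd2*-/- arrays. Its change was 1.99 in the earlier and 0.29 in the later set, and it did not pass without arrays 12 and 20 (0.96).

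**Figure D3:**
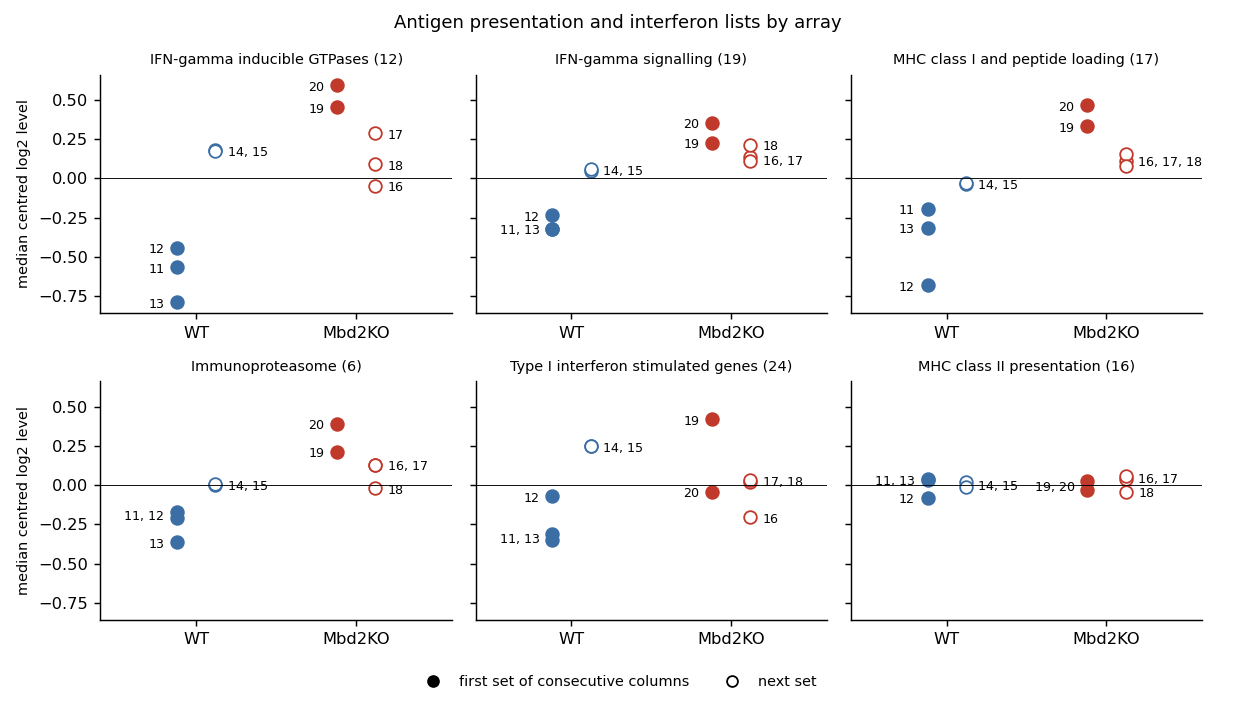
Median level of 6 lists on each array after each gene was centred on its mean (y axis, log2), with the number of measured genes in brackets; blue is WT, red *Mbd2*-/-, filled points the earlier set of columns and open points the later set, labelled with array numbers. WT arrays 11 to 13 are lowest for the interferon-γ inducible GTPases (-0.79 to -0.44), WT arrays 14 and 15 lie among the *Mbd2*-/- arrays, and the MHC class II medians hardly differ.

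Of 30 measured genes of resident macrophage identity 1 rose and 1 fell, a share close to the 5.45% of all tested genes that passed, and the median was 0.04. *Mertk*, a receptor for phosphatidylserine on dying cells, rose by 0.88 (8.72 ± 0.32 to 9.60 ± 0.28, adjusted p = 0.00851, limma) and kept a change of 0.80 without arrays 12 and 20. *Fcrls*, an Fc receptor-like scavenger receptor of tissue macrophages, fell by 1.55, from 11.63 ± 0.34 to 10.08 ± 0.29, although its dimmest probe changed by 0.11. *C1qc*, *Cx3cr1* and *Axl* changed by 0.06, -0.20 and -0.09 and did not pass.

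*Spic*, the transcription factor of macrophages that recycle heme iron, was read at 8.46, 8.24, 8.96, 8.66 and 8.83 on the WT arrays and at 9.65, 9.98, 10.51, 10.45 and 10.39 on the *Mbd2*-/- arrays. It rose 2.96-fold (change 1.56, SE 0.20, adjusted p = 8.32e-05, limma), with no overlap, and by 1.42 without arrays 12 and 20. A second, dimmer probe rose by 1.74. *Vcam1*, an adhesion molecule that depends on *Spic* in splenic red pulp macrophages, rose by 0.96 on its brightest probe, and by 2.11 and 1.37 on its other probes. Without arrays 12 and 20 the brightest probe gave 1.02 and just missed the threshold (adjusted p = 0.0511, limma). *Spic* and *Vcam1* were the passing genes among 21 of heme and iron recycling, whose median was 0.23. The ferritin chains *Fth1* and *Ftl1* and the iron exporter of the phagosome *Slc11a1* changed by 0.00, 0.05 and 0.23 and did not pass.

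Among 20 scavenger and uptake receptors, *Marco*, a class A receptor for bacteria, rose with *Mertk*. Its values were 5.16, 5.73, 4.98, 6.16 and 6.47 on the WT arrays and 6.50, 7.81, 6.90, 6.73 and 7.16 on the *Mbd2*-/- arrays, so the highest WT and the lowest *Mbd2*-/- value lay close together without overlap. The change was 1.32 (adjusted p = 0.00509, limma) and 1.29 without arrays 12 and 20. Both receptors passed without the pair of arrays, and the list median was 0.00.

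Alternative activation markers, the genes macrophages express under interleukin-4, split. *Arg1*, *Mgl2*, *Pdcd1lg2* and *Clec10a* rose, and 0 of the 21 measured members fell. *Pdcd1lg2*, a ligand of the checkpoint receptor PD-1, rose by 1.07 (5.84 ± 0.25 to 6.90 ± 0.21). The galactose-binding lectins *Mgl2* and *Clec10a* rose by 1.41 and 0.76, with the *Mgl2* value of 7.69 on WT array 12 far under the others (9.62 to 10.66). Without arrays 12 and 20 *Arg1* passed and the other 3 did not, at 0.71 for *Mgl2*, 0.74 for *Clec10a* and 1.04 for *Pdcd1lg2*. *Retnla*, a secreted marker of this state, was 12.54 ± 0.38 in WT and 11.53 ± 0.35 in *Mbd2*-/- macrophages, just outside the threshold (adjusted p = 0.054, limma). The mannose receptor *Mrc1* (-0.22) and the transglutaminase *Tgm2* (0.06) did not pass, and the list median was -0.03.

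The C-type lectins held 3 rises and 1 fall among 20 genes, beside 2.65% higher and 2.8% lower over all genes. Beside *Mgl2* and *Clec10a*, *Clec1b*, a receptor for podoplanin, was not well above background on any WT array and was above it on all 5 *Mbd2*-/- arrays, at least 1.28-fold higher. It entered the comparison only through the *Mbd2*-/- arrays, so this is a description, and it did not pass without arrays 12 and 20. *Klrd1*, a receptor best known on natural killer cells, fell by 1.34, from 7.60 ± 0.25 to 6.26 ± 0.45. *Klrd1* was the only passing gene of 5 measured natural killer markers, and *Gzma*, *Gzmb* and *Ncr1* were not tested.

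Of 17 complement genes 2 rose and 1 fell, beside 2.65% higher and 2.8% lower over all genes. *C6*, a component of the membrane attack complex, rose by 1.23 (7.34 ± 0.42 to 8.57 ± 0.44) and by 1.43 without arrays 12 and 20, and a second probe rose by 1.49. *Cfb*, factor B of the alternative pathway, rose by 1.10 and did not pass without the pair (1.00). *Vsig4*, a receptor for complement fragments that also inhibits T cells, fell by 1.17 (6.56 ± 0.72 to 5.39 ± 0.31), with a wide WT range of 5.63 to 7.28 and a change of -1.61 in the earlier and -0.62 in the later set, and did not pass without arrays 12 and 20 (-0.94). The remaining 14 of 17 members, *C1qb*, *C1qc* and properdin (*Cfp*, -0.03) among them, did not pass.

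Of 31 glutathione and antioxidant genes 5 rose and 0 fell, with a median of 0.12, and 0.19 without arrays 12 and 20. *Mgst1*, a membrane-bound glutathione transferase, was 8.23, 7.93, 8.39, 7.75 and 8.18 in WT and 8.82, 9.11, 9.29, 9.44 and 9.41 in *Mbd2*-/- macrophages. It rose by 1.12 (SE 0.22, adjusted p = 0.0058, limma) with no overlap, and by 1.03 without arrays 12 and 20. *Vnn3*, a pantetheinase, rose by 0.79, the soluble transferases *Gsto1* and *Gstp1* by 0.60 and 0.48, and the peroxidase *Prdx5* by 0.41. Of the 5, *Mgst1* passed without the pair of arrays. The abundant *Gpx1*, *Prdx1* and *Sod2* (0.57, -0.07 and 0.19) did not pass.

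Other rises in the lists were single genes, in counts to be read beside the 2.65% of all genes that were higher. *Creld2*, a disulfide isomerase of the unfolded protein response, rose by 0.75 (9.48 ± 0.18 to 10.23 ± 0.18, adjusted p = 0.000752, limma) among 26 genes of that response. The chaperone *Hsp90b1* (-0.19), *Herpud1* (-0.08) and the regulator *Xbp1* (-0.05) did not pass. *Sdf2l1*, the second passing member, rose by 1.10 and gave 0.58 without arrays 12 and 20. *Bub1b*, a checkpoint kinase of mitosis, rose by 0.70 with no overlap. With *Cdk1* (0.87) and *Top2a* (0.72) it made up the 3 passing genes of 30 in cell division, whose median was -0.15 with all arrays and 0.02 without arrays 12 and 20. *Bub1b* passed without the pair and the other two did not. Among 15 readers, writers and erasers of DNA methylation *Gadd45a* rose by 0.84, a call that was lost without the pair (0.67), with median scaling and with the macrophage arrays fitted alone. Of 10 NuRD subunits 0 passed.

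Some rises lay on a few arrays. *Hif1a*, the oxygen-regulated transcription factor, rose by 2.07 and *Pfkp*, a phosphofructokinase, by 2.00, but the values overlapped. *Hif1a* was 5.57, 5.07, 7.01, 7.21 and 9.10 on *Mbd2*-/- arrays 16 to 20 against 4.38 to 5.29 in WT, and *Pfkp* was 6.75, 5.82, 7.26, 8.19 and 9.79 against 4.42 to 6.80, so array 20 was the highest in both. Neither passed without arrays 12 and 20 (1.40 and 1.15), and the lists of 16 hypoxia and 19 glycolysis genes had medians of -0.02 and 0.06. *Ndrg1*, which hypoxia induces, fell by 0.87 and did not pass without the pair (-0.78).

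Genes of adhesion and the actin cytoskeleton held 5 falls and 1 rise among 23 measured, with a median of -0.18, beside 2.8% lower over all genes. The lists were chosen with earlier results of these data known, so the count describes the list and does not rank it. *Pdlim7*, a scaffold of stress fibres, fell by 0.83 (7.64 ± 0.31 to 6.82 ± 0.30, adjusted p = 0.00382, limma). *Pstpip1*, an adaptor of podosomes, fell by 0.58 and *Anxa2*, a calcium-dependent membrane-actin linker, by 0.48, and in both the *Mbd2*-/- arrays were closely grouped, at 9.33 ± 0.07 and 11.91 ± 0.10. Vinculin (*Vcl*, -0.69) and the integrin-linked kinase *Ilk* (-0.46) passed as well. *Myh10*, a nonmuscle myosin heavy chain near background in WT (above it on 2 of 5 arrays), rose by 0.92. It entered the comparison only with the *Mbd2*-/- arrays. *Pdlim7*, *Pstpip1*, *Anxa2* and *Myh10* passed without arrays 12 and 20, and *Vcl* and *Ilk* did not. The falls depended on the processing, as 1 rise and 0 falls of the list passed with median scaling. With the macrophage arrays normalised and fitted alone, 0 rises and 0 falls passed. The abundant *Zyx*, *Tpm4* and *Myh9* (-0.14, -0.15 and -0.21) did not pass.

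Sulphotransferases that modify chondroitin chains fell. *Chst7* was read at 6.76, 7.40, 6.91, 6.82 and 7.02 in WT and at 5.41, 5.80, 5.80, 5.39 and 5.39 in *Mbd2*-/- macrophages, with a wide gap between the genotypes and little spread in either. It fell by 1.43 on the log2 scale (SE 0.15, adjusted p = 1.16e-05, limma), by 1.64 in the earlier and 1.25 in the later set. *Chst3* fell by 1.08 and *Chst11* by 0.84, and second probes of both fell by 0.77 and 0.75. Of the 20 genes of proteoglycan sulphation 3 fell and 0 rose, at a median of -0.19 that was -0.09 without arrays 12 and 20. *Sulf2*, *Papss1* and *Papss2*, which remove or supply sulphate, changed by 0.05, 0.11 and 0.54 and did not pass. *Chst7* was the member that passed without arrays 12 and 20.

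The promoters of *Chst7*, which fell, and *Tspan10*, a tetraspanin gene that rose by 1.53 (adjusted p = 1.16e-05, limma), are shown as examples picked with their changes known. Mbd2 binds methylated CpG sites, and capitals mark CG. Both sequences are the stretch upstream of the RefSeq gene start on strand + (GRCm38.p6).
Chst7, chrX:20059320-20059569: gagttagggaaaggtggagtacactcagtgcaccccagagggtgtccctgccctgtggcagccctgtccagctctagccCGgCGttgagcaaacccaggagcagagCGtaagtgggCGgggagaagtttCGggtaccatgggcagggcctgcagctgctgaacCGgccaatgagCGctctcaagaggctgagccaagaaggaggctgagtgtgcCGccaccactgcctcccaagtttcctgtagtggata
Tspan10, chr11:120442381-120442630: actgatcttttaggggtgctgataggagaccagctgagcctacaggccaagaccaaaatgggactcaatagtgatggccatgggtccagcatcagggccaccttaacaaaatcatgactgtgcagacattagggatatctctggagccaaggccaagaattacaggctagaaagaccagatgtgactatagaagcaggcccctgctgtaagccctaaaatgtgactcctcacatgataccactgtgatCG
The printed stretches hold 8 CG in *Chst7* and 1 in *Tspan10*, and the longer windows used for the medians hold 12 and 1. Over the promoter windows that include the first bases of the transcript, the median CG count was 20 for the 8383 tested genes with a RefSeq promoter, 17 for the 186 such genes that rose and 18 for the 258 that fell. For the genes past the fold limit it was 16 in 67 rises and 8 in 15 falls, the reverse of the pair shown. These are descriptions, and no methylation was measured.

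Lipid mediator genes fell at the leukotriene branch. *Ltb4r1*, the high-affinity receptor for leukotriene B4, was 9.61, 8.93, 9.31, 9.34 and 9.05 in WT and 8.56, 8.20, 8.36, 7.99 and 8.44 in *Mbd2*-/- macrophages, without overlap, and fell by 0.94 (SE 0.15, adjusted p = 0.00134, limma). *Ltc4s*, which makes leukotriene C4, fell by 0.99, from 7.61 ± 0.14 to 6.61 ± 0.30. Both passed without arrays 12 and 20, at -1.05 and -0.92. The other 15 of 17 measured genes of this pathway, with *Alox5ap* (-0.12), which feeds both branches of leukotriene synthesis, did not pass.

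Of 23 growth factors and genes of epithelial repair 3 fell and 1 rose, at a median of -0.27 that was -0.12 without arrays 12 and 20. After centring, the median of the list was highest on WT array 12 (0.48) and lowest on *Mbd2*-/- array 20 (-0.43). *Igfbp6*, which binds insulin-like growth factor II, was 7.50, 7.23, 7.28, 6.88 and 6.49 in WT and 5.91, 5.81, 5.99, 5.16 and 5.25 in *Mbd2*-/- macrophages. It fell by 1.46 (adjusted p = 0.00267, limma), by 2.14 in the earlier and 0.79 in the later set. *Hgf*, hepatocyte growth factor, fell by 0.72, overlapped between genotypes and was -0.59 without arrays 12 and 20, not passing. *Angptl7*, an angiopoietin-like secreted protein, rose by 0.95, from 4.50 ± 0.24 on WT arrays, 2 of which were above background, to 5.45 ± 0.17. It entered the comparison only with the *Mbd2*-/- arrays. *Grn*, *Vegfa* and *Gdf15* (-0.01, 0.15 and -0.03) did not pass on their brightest probes, while a dimmer *Vegfa* probe rose by 0.63 without overlap (adjusted p = 0.0218, limma).

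Several secreted and surface proteins outside these lists fell without overlap. *Spp1*, osteopontin, went from 8.48 ± 0.37 to 7.25 ± 0.37 (change -1.22, adjusted p = 0.000692, limma), and by -1.29 and -1.35 in the earlier and later sets. *Alcam*, an adhesion molecule, fell by 1.07 (6.64 ± 0.27 to 5.57 ± 0.27) and *Trib2*, a pseudokinase, by 1.13 (6.06 ± 0.42 to 4.93 ± 0.27). The unnamed transcript *C230075M21Rik* fell by 1.08. All 4 passed without arrays 12 and 20. *Timp1*, the inhibitor of metalloproteinases, was 8.95 ± 0.21 and 7.87 ± 0.17 and fell by 1.07, but its adjusted p of 0.0411 became 0.165 without the pair, and none of the other 17 genes of that list passed.

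Transcription factors and signalling genes moved by small amounts. *Bcl6*, a repressor of inflammatory genes, fell by 0.59, *Stat3*, which relays interleukin-10 signals, by 0.74, *Irf4*, a factor of interleukin-4 responses, by 0.75 and *Cebpe* by 0.68. Of these *Cebpe* passed without arrays 12 and 20, and the dimmest *Stat3* probe changed by 0.39 without passing. *Cebpb*, *Egr1* and *Ets2* (-0.06, -0.14 and 0.00) did not pass. In TGF-β signalling *Bmpr2* (-0.43) and *Smad2* (-0.35) fell among 19 genes with a median of -0.22. Without the pair neither passed and the median was -0.05, and the centred list median was 0.41 on WT array 12 and -0.30 on *Mbd2*-/- array 20. The lysosomal proton pump subunit *Atp6v0a1* fell by 0.68 as the only passing gene of 28 lysosomal ones, and the pattern recognition genes *Tlr5* (-0.65) and *Nod2* (-0.52) fell while *Tlr13* rose by 0.60, with *Tlr13* at 8.58 on WT array 12 and 9.57 to 9.71 on the other WT arrays. The costimulatory *Cd83* fell by 0.36. None of *Atp6v0a1* (-0.52), *Tlr5* (-0.39), *Nod2* (-0.54), *Tlr13* (0.36) and *Cd83* (-0.38) passed without arrays 12 and 20. In counts, 1 of 28 pattern recognition genes rose and 2 fell, beside 2.65% higher and 2.8% lower over all genes. So did 1 and 2 of 19 costimulatory and checkpoint genes and 1 and 2 of 25 NF-κB and JAK-STAT regulators. Of 10 Fc receptor genes *Fcrls* fell. For lysozyme (*Lyz1*), the brightest probe gave 0.04 and did not pass, while the dimmer probes rose by 0.97 and 3.09.

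Inflammatory mediators that macrophages secrete in colitis gave few calls. None of 11 CC chemokines, 11 CXC chemokines or 7 phagocyte oxidase subunits passed (limma; the whole comparison had 2786 genes at an unadjusted p under 0.05). The brightest changed little, with -0.05 for *Ccl4*, 0.05 for *Cxcl2*, 0.05 for the oxidase subunit *Cyba* and, among cytokines, 0.01 for *Il1b* (13.64 ± 0.04 and 13.65 ± 0.07) and 0.05 for *Il10*. Quantile normalisation gives each rank 1 value on all arrays, which limits the spread of the brightest transcripts, and *H2-Ab1* was 14.14 ± 0.00 in *Mbd2*-/- macrophages for this reason. *Ccl9* (-0.44) and *Cxcl1* (-0.41) did not pass. Of 6 chemokine receptors *Cxcr4* fell by 0.74 and *Ccr2*, the receptor that brings monocytes to tissue, by 0.67, and neither passed without arrays 12 and 20. Imprinted genes and germline genes, classes that DNA methylation keeps silent, gave 0 calls among 8 and 4 measured members.

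**Figure D4:**
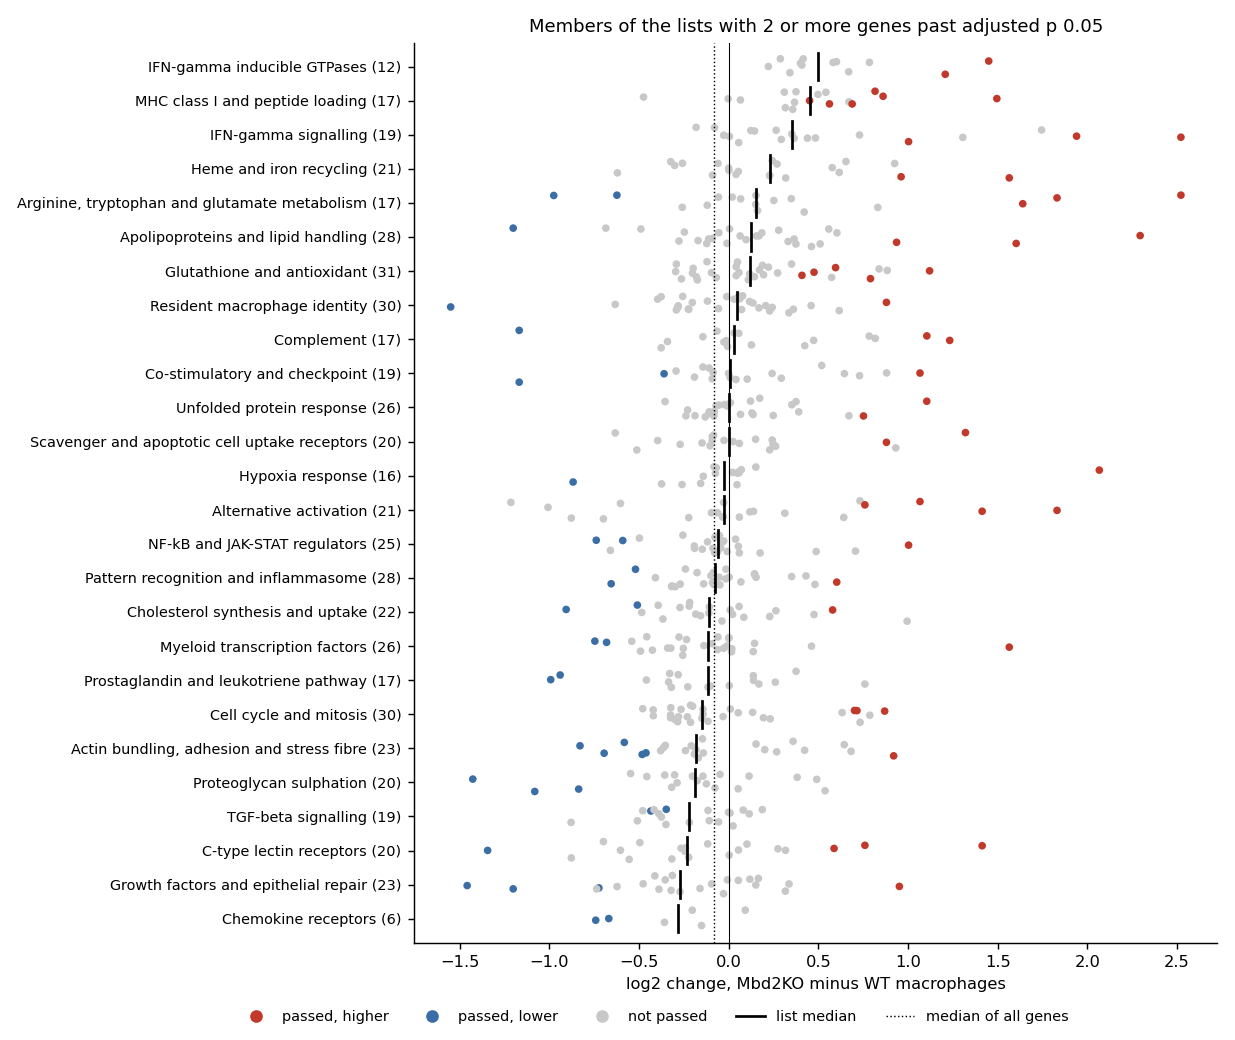
Log2 change of every measured member of the lists with at least 2 passing genes (x axis; the number measured is in brackets); red and blue points passed at an adjusted p of 0.05 as higher or lower in *Mbd2*-/- macrophages, grey points did not pass, bars are list medians and the dotted line is the median of all genes (-0.08). The interferon-γ inducible GTPases have the highest median (0.50) and chemokine receptors the lowest (-0.28), and most members of every list are grey.

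Markers of other cell types moved with some of these lists. Among monocyte markers *Ly6c1* (0.91) and *Plac8* (0.45) rose while *Ccr2* and *S100a4* (-1.12) fell, and the 10 measured summed to 4729 to 8421 on WT arrays and, on *Mbd2*-/- arrays, to 7192 to 9223. *Ly6c1* changed by 1.65 in the earlier and 0.07 in the later set, the sets in which the GTPase list changed by 1.13 and -0.01. Summed markers of type 2 dendritic cells, a list that includes *Mgl2* and *Clec10a*, were 12311 to 13059 in WT and 13061 to 15918 in *Mbd2*-/- arrays, while *Irf4*, *Kmo* and *Zbtb46* (-0.55) of the same list fell. The brightest member of that list was *Sirpa*, and 6 of the 9 measured members had negative changes, at a median of -0.15. Of these monocyte and dendritic cell markers *S100a4* passed without arrays 12 and 20. Neutrophil markers summed to 1666 to 3548 and 2373 to 7084, with *S100a8* at 9.33 ± 0.77 and 10.57 ± 0.76 and 0 of 6 passing. Markers of stromal, endothelial and T cells leaned the other way. Of 12 fibroblast and stromal markers 10 had negative changes and 0 passed, with a median of -0.40 that was -0.14 without arrays 12 and 20, and the centred list median was 0.60 on WT array 12 and -0.60 on *Mbd2*-/- array 20. These 2 arrays also held the extremes of the growth factor, TGF-β and sulphation lists, whereas the stromal extremes were WT array 15 (0.79) and WT array 11 (-0.71). Of 9 endothelial markers 7 were negative, at a median of -0.37 with all arrays and -0.08 without the pair, and summed intensities of the stromal markers were 2710 to 7320 in WT against 3073 to 6229 in *Mbd2*-/- arrays. All 8 T cell markers had negative changes, with a median of -0.45 and -0.46 without the pair, and 1 passed. Epithelial markers had a median of 0.33, which was -0.02 in the earlier set, 0.94 in the later set and 0.49 without the pair. The part of all these cells in the changes above was not tested.

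Further markers passed singly. *Prg2* of eosinophils rose by 0.91, *Il7r* of T cells fell by 0.86, *Cd79b* of B cells by 0.76 and *Vwf* of endothelium by 0.96. Without arrays 12 and 20 *Prg2* passed (1.18), and *Il7r* (-0.80), *Cd79b* (-0.53) and *Vwf* (-0.82) did not. *Reg3b* and *Reg3g*, antimicrobial lectins of the colon epithelium, rose by 1.28 and 1.66, while the other 14 measured epithelial markers did not pass. *Reg3g* passed without the pair and *Reg3b* did not (1.28, adjusted p = 0.0556, limma). Of 35 measured probes named for immunoglobulin variable regions, 5 rose and 0 fell, with a median of 1.16. WT array 12 was lowest in 22 of them, and without arrays 12 and 20 the median was 0.64 and 1 passed. Probes of the loci *LOC385109*, *LOC213684*, *LOC385291*, *LOC672342*, *LOC672339* and *LOC100046793*, which the array lists without a gene name, had changes of 1.88 to 2.22, and WT array 12 was the lowest in all 6. Without the pair the changes were 1.18 to 1.57, and *LOC385109* and *LOC385291* passed while the other 4 did not. *LOC630347*, a further unnamed locus, rose by 1.77 and did not pass without the pair (1.44).

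Colon monocytes of the same genotypes (5 WT and 5 *Mbd2*-/- arrays, none shared) were the nearest population for comparison. There 206 of the 12027 genes passed (1.71%), 94 higher and 112 lower. Of the 656 macrophage genes 76 passed in both cell types, 11.6% of the macrophage and 36.9% of the monocyte genes, and 75 of the 76 moved in the same direction. *Ido1* (2.20 in monocytes), *Apoc1* (2.05), *Ubd* (1.64), *Fabp3* (1.37), *Fcrls* (-2.14), *Klrd1* (-1.54) and *Spp1* (-1.18) were among them. The sign was the same in both cell types for 67.3% of all tested genes and for 88.6% of the 656. Both comparisons used the same estimate of spread per probe, so passing in both is not independent. Across all genes the changes correlated at r = 0.459, a description over genes, which are not independent, from arrays that may come from the same mice.

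The change differed between the cell types in 4 genes (0.0333% of those tested; interaction in limma, adjusted p = 0.0188 each). *Tspan10*, a tetraspanin, was 4.63, 4.92, 4.79, 4.50 and 4.41 on WT and 6.01, 6.09, 6.13, 6.96 and 5.73 on *Mbd2*-/- macrophage arrays, and was above background on 0 of 10 monocyte arrays (4.25 ± 0.05 and 4.39 ± 0.17). The difference of the changes was 1.39 (SE 0.23). *Angptl7* likewise rose in macrophages and was above background on 0 monocyte arrays, with a difference of 0.90 (SE 0.15). *Cebpe*, a factor of granulocyte maturation, fell by 0.68 in macrophages and rose by 0.64 in monocytes. *Spink2*, a serine protease inhibitor, did not pass in macrophages (-0.42, adjusted p = 0.163, limma) and rose by 1.22 in monocytes. For all other genes a difference between the cell types was not detected with 5 arrays per group, which does not show that they changed alike.

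**Figure D5:**
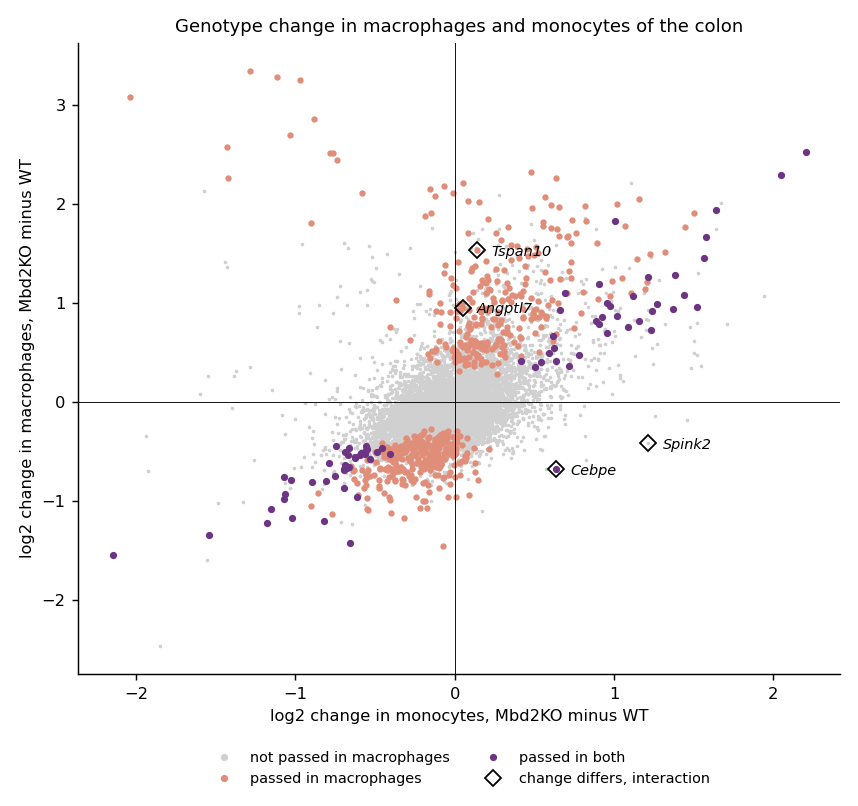
Log2 change (*Mbd2*-/- minus WT) of the 12027 tested genes in monocytes (x axis) and macrophages (y axis); orange genes passed in macrophages, purple genes in both, grey genes did not pass in macrophages, and diamonds mark the 4 genes whose change differed. Purple points lie in the upper right and lower left, except *Cebpe* (-0.68 and 0.64), and *Tspan10* and *Angptl7* lie near 0 on the monocyte axis.

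A few rises belonged to no list. *Ddhd1*, a phospholipase that acts on phosphatidic acid, was 5.60, 5.46, 6.28, 6.04 and 6.25 in WT and 7.00, 7.03, 7.62, 8.13 and 7.90 in *Mbd2*-/- macrophages and rose by 1.61 (SE 0.21, adjusted p = 0.000103, limma), with 1.40 without arrays 12 and 20. Its second probe, at 0.71, did not pass (adjusted p = 0.070, limma). *Sema6d*, a transmembrane semaphorin, rose by 1.39 from a WT level above background on 2 of 5 arrays, and its second probe, dim in both genotypes, changed by -0.02. *Sema6d* entered the comparison only with the *Mbd2*-/- arrays. By position, the share of tested genes that passed was highest for chromosome 18 (20 of 251, 7.97%, 15 of them lower), beside 5.45% over all chromosomes.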

How the data were processed

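RNA of sorted colon cells was hybridised to Illumina MouseWG-6 BeadChips. The authors deposited raw GenomeStudio intensities, with no normalisation or background subtraction, for 45281 probes. The deposited detection p-value of each probe and array sets its signal against 936 negative control probes. The submitters' processing notes name lumi and limma without versions. The table held 3 further signal columns of no listed sample, which were not used.

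Intensities were background corrected (normexp on the negative controls, offset 16), quantile normalised over the 25 colon arrays, and fitted in limma 3.58.1 (R 4.3.3, with the data.table package, version 1.17.8) with 6 groups of cell type and genotype. Probes with a detection p under 0.05 on at least 5 of the 10 macrophage arrays were tested (16834), p-values were Benjamini-Hochberg adjusted over them, and a gene was read by its brightest probe. Genes passed at an adjusted p under 0.05. The number of arrays limits the precision, and since replicates pooled mice, p-values measure the spread between pools. Names were updated through RefSeq tables of GRCm38.p6 (27655 probes by accession, 4818 by symbol, 3817 by synonym, 8991 kept the array's name), and promoter sequences came from RefSeq. Probe sequences were not analysed here, and single values of some genes are not reported here.

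The members and gene lists were chosen with earlier results of these data known. Genes named are the largest rises and falls past a log2 change of 1 whose genotypes did not overlap, the 10 smallest p, up to 4 passing members of each list with its brightest members that did not pass, passing markers, and genes whose change differed from monocytes. Alternatives covered background correction, normalisation, probe filter, threshold, probe choice, arrays in the fit, array weights, column sets and leaving out arrays. Tested on simulated data, with 40 of the 16834 probes changed at each size, the macrophage fit called 90% at a log2 change of -1.5, 90% at -1, 87.5% at 1, 92.5% at 1.5 and 97.5% at 2.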

Additional observations from a re-analysis of the deposited data

Results flagged for a closer look

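In the groups of 5 macrophage arrays, the levels below had 1 array far from the others, by a gap test that marks about 1 in 20 groups by chance. WT array 12 was the low array for the unnamed loci *LOC213684* (5.60), *LOC385291* (4.54), *LOC100046793* (6.61), *LOC672342* (5.07) and *LOC672339* (4.36), an immunoglobulin kappa variable probe (5.26), *H2-M3* (9.41) and *Tlr13* (8.58). *Mbd2*-/- array 20 was high for *Tap1* (10.39) and low for *Ccr2* (5.92). WT array 11 was high for *Chst3* (6.76), and *Mbd2*-/- array 16 was low for *Smad2* (6.99). The part of sample makeup in these values was not tested.

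The genotype change differed between macrophages and monocytes by the interaction in limma for *Spink2* (macrophage minus monocyte change -1.63), *Cebpe* (-1.32), *Angptl7* (0.90) and *Tspan10* (1.39). *Angptl7* and *Tspan10* were above background on no monocyte array, so their monocyte change has no measured level behind it.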

How the results depend on the processing

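No paired analysis could be run because the labels do not say which WT and *Mbd2*-/- arrays belong together. The paper reports replicates from separate experiments, which the labels do not assign to arrays. Of 656 passing genes (160 past the fold limit), the counts were 147 (110) with median scaling, 297 (62) without the probe filter, 108 (39) at an adjusted p under 0.01, 60 (32) with macrophage arrays normalised and fitted alone, 434 (83) with array weights, 1229 (507) within the earlier set of columns, 13 (10) within the later set and 121 (48) without arrays 12 and 20, a choice made after seeing the data. The fold limit kept 58 genes without background correction and 87 with an offset of 50. Leaving out 1 array gave 219 to 1098 passing genes and 59 to 253 past the fold limit, lowest without WT array 12 and highest without WT array 15, and 222, 244, 321 and 429 genes passed without *Mbd2*-/- array 20, *Mbd2*-/- array 19, WT array 14 and *Mbd2*-/- array 18. The cause of these shifts was not tested, other than that a stricter threshold calls fewer genes by construction. The higher and lower counts were 319 and 337, against 114 and 33 with median scaling and 386 and 266 with cyclic loess.

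The 4 genes that differed from monocytes became 1 without background correction, 1 with median scaling, 1 with cyclic loess, 2 with a stricter probe filter, 0 at an adjusted p under 0.01, 0 with macrophage and monocyte arrays only, 7 with array weights, and 0 (without WT array 14) to 6 when 1 array was left out. Among the 103 named genes that passed, 0 changed sign in any of 24 alternatives and 93 missed the threshold in at least 1. Outside the fits within a single set, 23 passed in every alternative, *Apoc1*, *Arg1*, *Slc1a3*, *Spic*, *Tspan10*, *Chst7* and *Ltb4r1* among them. Transcripts near background in WT, such as *Clec1b*, *Angptl7*, *Sema6d*, *Il27*, *Myh10* and *Tspan10*, entered the comparison only with the *Mbd2*-/- arrays. They have only a lower bound or a weakly measured WT level.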

Other observations

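A set of 14 rises past the fold limit shared 1 profile over the 10 macrophage arrays, with a correlation of at least 0.9 to the unnamed locus *LOC386144*, which 0.208% of all tested genes reached. The array names 12 of them only as LOC entries, and the others are *F730003H07Rik* and *Reg3g*. Their log2 changes ran from 1.12 to 3.28, yet the genotypes overlapped in all 14. Without arrays 12 and 20, 3 passed, and 1 passed with every array left out in turn. In monocytes 13 of the 14 were lower in *Mbd2*-/- arrays, and the changes ran from -2.04 to 1.58. The set was chosen by its likeness in these arrays, so it carries no test.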
